A study of Homo sapiens with 4 samples.

Results

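Beta-catenin, its destruction complex and the TCF factors it works with were followed at the level of their transcripts as 10 genes chosen by name out of 28391 in the deposited table. They are CTNNB1 (beta-catenin), the scaffolds APC and AXIN1, the kinases GSK3A, GSK3B and CSNK1A1, the DNA-binding factors TCF7, TCF7L1 and TCF7L2, and the adaptor BCL9L. All 10 were found and all 10 passed the filter on low values.

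RNA was sequenced from HCT116, an established human colorectal carcinoma line, to ask which transcripts differ when ALKBH5 is knocked down. ALKBH5 is an enzyme that removes N6-methyladenosine (m6A), a methyl mark on adenosines, from RNA. There were 2 libraries of cells with a hairpin against ALKBH5, labelled shALKBH5, with the genotype ALKBH5 knockdown, and 2 of cells with the control hairpin, labelled shNC, with the genotype WT. Cells of both groups were grown in the same medium without further treatment, and the labels name no second hairpin against ALKBH5 and no rescue. HCT116 itself is known to carry an activating deletion within the destruction-complex target stretch of beta-catenin on 1 allele, and both groups share it.

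The destruction complex keeps beta-catenin scarce. On the scaffolds AXIN1 and APC, casein kinase 1 alpha (CSNK1A1) and then the GSK3 kinases phosphorylate the amino-terminal end of beta-catenin, which marks it for ubiquitination and breakdown by the proteasome. When a Wnt signal or a mutation stops this, beta-catenin enters the nucleus, binds TCF factors and, through BCL9 or BCL9L and Pygopus proteins, switches on their target genes, a program that maintains intestinal crypts and is active in most colorectal cancers.

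Values are normalised read counts, that is, the reads a gene received after scaling each library by its own size factor. Errors of means are SD with n = 2 libraries per group, and fold changes are shALKBH5 over shNC on the log2(value + 1) scale, with their standard error (SE), tested with limma-trend and called at a Benjamini-Hochberg adjusted p under 0.05 over all 25887 genes tested. Libraries held 16398604 to 17493141 assigned reads, and the 10 genes were read at 349 to 6629 reads per library, where counting error alone gives a 95% half-width of 10.6% at the lowest and 2.41% at the highest. Whether the 2 libraries of a group stand for separate cultures is not stated in the labels. The p-values therefore speak only to the spread between these libraries, and that spread may be technical. ALKBH5 had 312 and 270.2 normalised counts in shALKBH5 cells, against 1905 and 1941 in shNC cells, a log2 fold change of -2.72. Of the colon epithelial markers EPCAM, KRT8, KRT18, KRT19, CDH1 and CLDN4, 6 of 6 were read in every library. Their sum was 103301 to 105443 in shALKBH5 libraries and 111673 to 114368 in shNC libraries. KRT8 and KRT18 fell in shALKBH5 cells, by 0.15 and 0.30 on the log2 scale. The other 4 did not pass in limma-trend, with log2 fold changes of 0.18 for EPCAM, -0.01 for KRT19, -0.19 for CDH1 and -0.14 for CLDN4. Of these, edgeR called EPCAM as higher and CDH1 and CLDN4 as lower, and DESeq2 called only EPCAM, as higher. Leukocyte markers summed to 7.09 to 8.01 counts in shALKBH5 libraries and 14.3 to 22.5 in shNC libraries, and endothelial markers to 28.4 to 43.0 and 37.1 to 56.2. Fibroblast markers, nearly all of it COL1A1, summed to 858 to 882 in shALKBH5 and 913 to 925 in shNC libraries, and liver or kidney line markers, nearly all of it PAX2, to 250 to 252 and 278 to 302. No marker that was analysed was at 0 in all libraries. PTPRC and CD3E of the leukocyte, COL1A2 and LUM of the fibroblast and TTR of the liver markers were not analysed here. The part of these differences in the results was not tested.

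Among the 10 genes, TCF7 was the only one that passed the test, and it fell to 539 ± 27.3 normalised counts in shALKBH5 cells, against 790 ± 20.4 in shNC cells. None (0) rose in limma-trend. The other 9 did not pass, with 2 (TCF7L2 and BCL9L) higher and 2 (TCF7L1 and GSK3B) lower in shALKBH5 at an unadjusted p under 0.05. Of all genes tested, 3.86% were called, 1.98% as higher and 1.88% as lower, and 21.4% had an unadjusted p under 0.05. Among protein-coding genes averaging 100 or more counts, a bound that all 10 genes exceed, 8.84% were called. Limited to genes with a mean of at least 50 counts, limma-trend called 5 of the 10, TCF7L2 and BCL9L as higher and TCF7, TCF7L1 and GSK3B as lower, where it called 27.8% of such genes. On whole reads recovered from the values, edgeR's quasi-likelihood test called the same 5 genes in the same directions, where it called 20.8% of all genes it tested. DESeq2 on the same reads called 3, with TCF7L2 and BCL9L higher and TCF7 lower, where it called 11.4% of genes. The same 3 pass in the authors' deposited table, where 1484 of all 28391 genes pass (5.23%). That share is over every gene in the table. The 11.4% of DESeq2 is over the 12979 genes given an adjusted p, so the shares are not comparable. The median log2 fold change of the 10 genes was -0.05, against -0.00 over all genes tested.

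**Figure D1:**
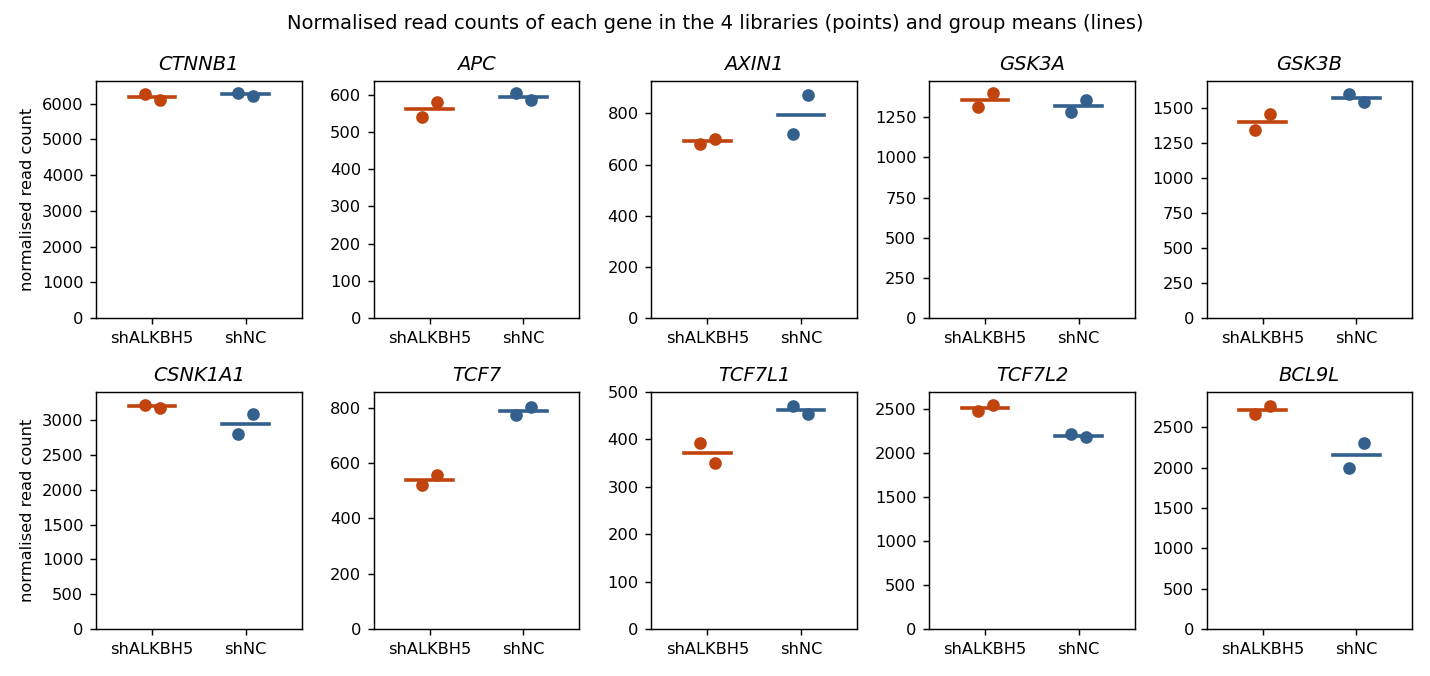
Normalised read counts (y axis, linear from 0, a different range in each panel) of the 10 genes in the 2 shALKBH5 libraries (left, orange) and the 2 shNC libraries (right, blue), with points for libraries and lines for group means. TCF7 lies at 519.8 and 558 in shALKBH5 against 775 and 804 in shNC, while the groups overlap for CTNNB1 and GSK3A.

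Beta-catenin is both the coactivator of TCF factors and a part of cell adhesion complexes at E-cadherin. CTNNB1 (ENSG00000168036, chromosome 3, 41194741 to 41260096, plus strand, GRCh38) had 6275 and 6109 normalised counts in shALKBH5 cells, against 6305 and 6224 in shNC cells. The groups overlapped, with shALKBH5 library 1 inside the range of the shNC libraries. The log2 fold change was -0.02 ± 0.0321 (SE), with a limma-trend adjusted p of 0.822. Its 95% interval, -0.10 to 0.06, corresponds to a ratio of 0.935 to 1.045, which bounds a change of the transcript in either direction more tightly than for any other of the 10 genes. Per kilobase of exon, CTNNB1 stood highest of the 10 in every library.

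The part of beta-catenin that the destruction complex acts on is encoded in exon 3 of CTNNB1 by 63 bases on GRCh38, chr3:41224597-41224659, plus strand, codons 29 to 49. They are shown from the GENCODE 29 transcript because the kinases described next act here. The capitals mark the codons of the 4 phosphorylated residues, serines 33 and 37 and threonine 41, which GSK3 kinases phosphorylate, and serine 45, which CSNK1A1 phosphorylates first.
CTNNB1 exon 3: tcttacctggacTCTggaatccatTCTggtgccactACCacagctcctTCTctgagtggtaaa
This is the reference sequence. Counts per gene do not tell reads of the mutated HCT116 allele from those of the other allele.

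The scaffolds of the complex were both slightly lower in shALKBH5 cells, and neither passed the test. APC, the tumour suppressor that is truncated in most colorectal cancers, had 541 and 579 normalised counts in shALKBH5 cells, against 603 and 585 in shNC cells. The groups lay next to each other without overlapping. The log2 fold change was -0.09 ± 0.0651 (SE), with a limma-trend adjusted p of 0.514. AXIN1, the scaffold whose amount is thought to limit the complex, had 682 and 702 counts in shALKBH5 cells, against 718 and 873 in shNC cells. The shALKBH5 libraries were close together, and shNC library 2 lay far above the other 3 libraries. Its log2 fold change was -0.19 ± 0.0999 (SE), with an adjusted p of 0.333, and its 95% interval of -0.44 to 0.06 includes no change. Without shNC library 1, edgeR called AXIN1 as lower with an adjusted p of 0.0021, within a range of 0.0021 to 0.734 over 18 alternatives. APC lies on chromosome 5 (112707498 to 112846239, plus strand) and AXIN1 on chromosome 16 (287440 to 352673, minus strand).

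Of the kinases, CSNK1A1 and the GSK3 paralogs differed in direction, and none passed. CSNK1A1 (chromosome 5, 149492197 to 149551552, minus strand) had 3226 and 3183 normalised counts in shALKBH5 cells, against 2799 and 3089 in shNC cells. The shALKBH5 libraries lay above both shNC libraries, with a gap smaller than the distance between the shNC libraries. Its log2 fold change was 0.12 ± 0.0549 (SE), with an adjusted p of 0.266. Without shNC library 2, edgeR called it as higher with an adjusted p of 0.00253, within a range of 0.00253 to 0.602 over the alternatives. CSNK1A1 shares 2886 of its 7714 exon bases with AC021078.1 on the same strand, which had 360 and 356 counts in shALKBH5 cells and 498 and 369 in shNC cells, so reads of these 2 genes may have been divided between them. Its processed pseudogene CSNK1A1P1 had at most 4.09 counts in any library.

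GSK3B (chromosome 3, 119821323 to 120094417, minus strand), the GSK3 form most often studied in this pathway, had 1346 and 1457 normalised counts in shALKBH5 cells, against 1601 and 1543 in shNC cells. The groups did not overlap. The log2 fold change was -0.17 ± 0.0559 (SE), with a 95% interval of -0.31 to -0.03 and a limma-trend adjusted p of 0.172. It fell in edgeR, where the adjusted p was 0.0432, and over 18 alternatives the adjusted p ran from 0.0223 to 0.502. GSK3A (chromosome 19, 42230186 to 42242625, minus strand), which can take the place of GSK3B in phosphorylating beta-catenin, had 1314 and 1399 counts in shALKBH5 cells, against 1280 and 1359 in shNC cells. These groups overlapped. Its log2 fold change was 0.04 ± 0.0565 (SE), with a limma-trend adjusted p of 0.749. GSK3A shares 479 of its 4126 exon bases with AC006486.1 on the same strand, which was not analysed here.

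The nuclear genes TCF7, TCF7L1, TCF7L2 and BCL9L had groups that did not overlap and an unadjusted p under 0.05 in 4 of 4. Of the 6 genes of beta-catenin and its destruction complex, 4 did not overlap between the groups and 1, GSK3B, had an unadjusted p under 0.05. Over all genes tested, 50.6% did not overlap between the groups, and 65.2% of protein-coding genes averaging 100 or more counts, so a gap between 2 and 2 libraries is common in these data. An unadjusted p under 0.05 was found for 21.4% of all genes tested and for 37.7% of those protein-coding genes.

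TCF7 encodes TCF1, a TCF factor that is itself a target of beta-catenin in colon epithelium and also occurs in short forms that lack the beta-catenin binding end. TCF7 (ENSG00000081059, chromosome 5, 134114711 to 134151865, plus strand) had 519.8 and 558 normalised counts in shALKBH5 cells, against 775 and 804 in shNC cells. Both shALKBH5 libraries lay below both shNC libraries by several times the distance within a group. The mean in shALKBH5 cells was 31.7% lower, a log2 fold change of -0.55 ± 0.0642 (SE, 95% interval -0.71 to -0.39), with a limma-trend adjusted p of 0.0209. Its log2 fold change ran from -0.61 to -0.50 over 18 alternatives, and its call was kept in 14. As the groups do not overlap, leaving out a library could not reverse the direction. Without shNC library 1 or shNC library 2, limma-trend gave an adjusted p of 0.274 or 0.242, where it called 0 genes in all and gave 3859 or 4201 an unadjusted p under 0.05. By edgeR, TCF7 was called in 4 of 4 fits that left out a library. TCF7 shares 210 of its 10063 exon bases with SKP1 on the opposite strand. SKP1 had 2254 and 2216 counts in shALKBH5 cells and 2349 and 2248 in shNC cells. The strand setting is not given, and whether TCF7 counts hold reads of SKP1 was not tested. In a bulk sample, a lower level in each cell and fewer cells with the transcript cannot be told apart, nor can counts per gene tell the long from the short forms.

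TCF7L1, which encodes TCF3, mostly acts as a repressor of TCF target genes. TCF7L1 (chromosome 2, 85133410 to 85310388, plus strand) had 392 and 349 normalised counts in shALKBH5 cells, against 471 and 455 in shNC cells. Both shALKBH5 libraries were lower, and they were further apart than the shNC libraries. The log2 fold change was -0.32 ± 0.0834 (SE, 95% interval -0.53 to -0.11), with a limma-trend adjusted p of 0.107. EdgeR gave an adjusted p of 0.0176, and over the alternatives it ran from 0.0152 to 0.357.

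TCF7L2 encodes TCF4, the main TCF factor of the intestinal epithelium. TCF7L2 (chromosome 10, 112950250 to 113167678, plus strand) had 2475 and 2549 normalised counts in shALKBH5 cells, against 2213 and 2179 in shNC cells. The groups did not overlap, and TCF7L2 had more counts than TCF7 and TCF7L1 in every library. The log2 fold change was 0.19 ± 0.0388 (SE, 95% interval 0.10 to 0.29), with a limma-trend adjusted p of 0.0630. In the authors' deposited table the adjusted p for TCF7L2 is 0.0367, in edgeR it was 0.00641, and over the alternatives it ran from 0.00366 to 0.379, passing in 7 of 18.

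BCL9L, a paralog of BCL9, links beta-catenin to Pygopus proteins. BCL9L (chromosome 11, 118893875 to 118925608, minus strand) had 2661 and 2764 normalised counts in shALKBH5 cells, against 2000 and 2308 in shNC cells. Both shALKBH5 libraries were higher, and the shNC libraries were the further apart. The log2 fold change was 0.34 ± 0.0738 (SE, 95% interval 0.15 to 0.52), with a limma-trend adjusted p of 0.0756. In the authors' deposited table the adjusted p for BCL9L is 0.000395, in edgeR it was 0.000278, and over the alternatives it ran from 1.09e-12 to 0.347, passing in 10 of 18. BCL9L shares 3925 of its 10470 exon bases with CXCR5 on the opposite strand, and CXCR5 had at most 2.04 counts in any library.

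**Figure D2:**
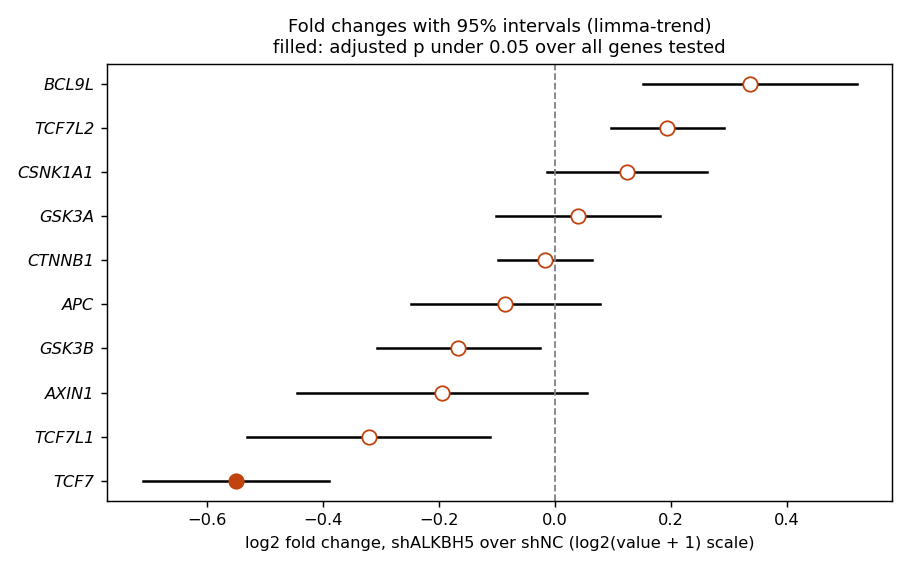
Log2 fold change of each gene (x axis, shALKBH5 over shNC on the log2(value + 1) scale), ordered by size, with 95% intervals from limma-trend as bars and a filled point where the adjusted p over all genes is under 0.05. TCF7 at -0.55 is the filled point, the interval of CTNNB1 spans -0.10 to 0.06, and those of TCF7L1, GSK3B, TCF7L2 and BCL9L leave out 0.

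The mixture of TCF family transcripts was described as the percent that each gene takes of the summed level per kilobase of exon of TCF7, TCF7L1 and TCF7L2, a share that does not depend on how libraries were scaled. LEF1, the remaining family member, was not analysed here. TCF7 took 10.2% and 10.8% in shALKBH5 libraries, against 15.0% and 15.8% in shNC libraries. TCF7L1 took 17.5% and 15.4% in shALKBH5 libraries, against 20.8% and 20.3% in shNC libraries. TCF7L2 took 72.3% and 73.8% in shALKBH5 libraries, against 64.1% and 63.9% in shNC libraries. In these libraries TCF7L2 made up more of the family in shALKBH5 cells and the other 2 less. The shares are parts of the same sum, so they are not separate results. None of them overlapped between the groups, but neither did the counts of 65.2% of protein-coding genes averaging 100 or more counts. The share of TCF7 averaged 10.5% ± 0.458 in shALKBH5 and 15.4% ± 0.524 in shNC libraries, a difference of -4.92 percentage points. An exact two-sided permutation test gave p = 0.333, the smallest p that 2 libraries against 2 can give. Without correction for length the difference was -7.15 points, and by the length of the principal transcript, an alternative chosen after the data were seen, it was -7.56 points.

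The paralog pairs among the kinases and adaptors were compared in the same way. GSK3A took 65.9% and 65.5% of the summed level per kilobase of GSK3A and GSK3B in shALKBH5 libraries, against 61.3% and 63.5% in shNC libraries. The groups differed by 3.30 points on average, and the gap between them, from 65.5% to 63.5%, was smaller than the distance between the shNC libraries. BCL9L took 66.7% and 69.2% of the BCL9L and BCL9 level in shALKBH5 libraries, against 58.1% and 60.1% in shNC libraries. The groups differed by 8.84 points on average, and the gap between them, from 66.7% to 60.1%, was larger than the distance within either group. For each pair the exact two-sided permutation p was again 0.333, the smallest possible.

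**Figure D3:**
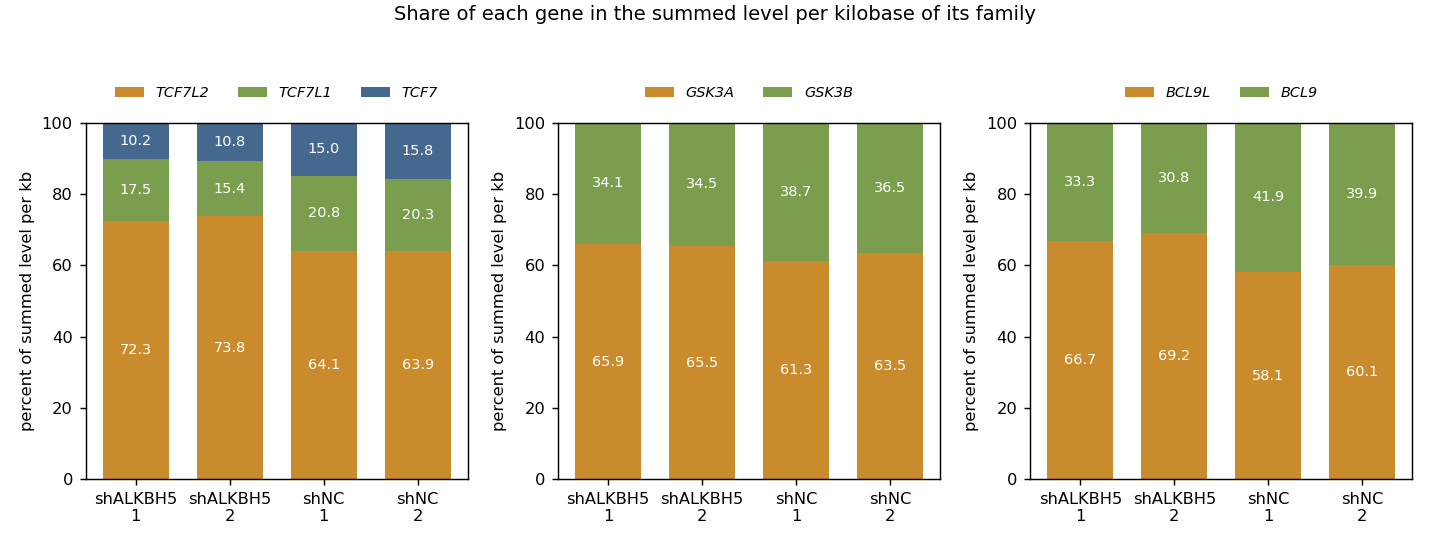
Percent (y axis) of the summed level per kilobase of exon that each gene takes within its family in each library, with shALKBH5 libraries left of shNC libraries; panels show TCF7L2, TCF7L1 and TCF7, GSK3A and GSK3B, and BCL9L and BCL9. TCF7L2 takes 72.3% and 73.8% in shALKBH5 against 64.1% and 63.9% in shNC, and BCL9L 66.7% and 69.2% against 58.1% and 60.1%.

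Compared per kilobase of exon, the order of the levels was the same in both groups. CTNNB1 led with a mean of 519 normalised counts per kilobase in shALKBH5 cells and 525 in shNC cells, ahead of CSNK1A1 with 415 and 382, TCF7L2 with 373 and 326, and GSK3A with 329 and 320. BCL9L followed with 259 in shALKBH5 and 206 in shNC cells and GSK3B with 172 and 193. The scaffolds and the lower TCF genes closed the order, AXIN1 with 92.4 in shALKBH5 and 106 in shNC cells, TCF7L1 with 84.0 and 105, TCF7 with 53.6 and 78.5, and APC with 45.0 and 47.8. Every pair of neighbours was separate in the shALKBH5 libraries. In the shNC libraries TCF7L2 overlapped GSK3A, BCL9L overlapped GSK3B, and AXIN1 overlapped TCF7L1. The order depends on the length used. By the principal transcript, CTNNB1 still led, with 1308 in shALKBH5 and 1323 in shNC cells, and APC was still lowest, with 52.4 and 55.5, but TCF7 stood at 162 in shALKBH5 cells, below GSK3B, and at 237 in shNC cells, where it overlapped AXIN1.

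Since TCF7 is a known target of TCF factors, the promoters of the genes were searched for 2 forms of the TCF binding motif, CTTTGAT and CTTTGTT, on both strands; neither form overlaps the other. The windows are 250 bases before to 50 bases after each start in RefSeq on GRCh38.p14. They number 14 for 9 of the 10 genes. Of all 35116 such promoters, 7.61% hold a match. A match was found in 2 of the 14, an internal promoter of TCF7 on the reverse strand at position -50 from its start and an internal promoter of TCF7L2 at position -133. Both are shown, with the matched letters in capitals, because they are the only windows of the 14 with a match. The other windows of TCF7 and TCF7L2 hold none. The first is chr5:134123368-134123667 and the second chr10:113126383-113126682, both on the plus strand.
TCF7 promoter: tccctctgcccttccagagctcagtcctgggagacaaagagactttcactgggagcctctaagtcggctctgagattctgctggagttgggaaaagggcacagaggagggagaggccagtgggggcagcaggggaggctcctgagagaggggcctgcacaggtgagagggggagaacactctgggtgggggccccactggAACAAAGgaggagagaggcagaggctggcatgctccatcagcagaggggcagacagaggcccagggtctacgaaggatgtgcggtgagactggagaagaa
TCF7L2 promoter: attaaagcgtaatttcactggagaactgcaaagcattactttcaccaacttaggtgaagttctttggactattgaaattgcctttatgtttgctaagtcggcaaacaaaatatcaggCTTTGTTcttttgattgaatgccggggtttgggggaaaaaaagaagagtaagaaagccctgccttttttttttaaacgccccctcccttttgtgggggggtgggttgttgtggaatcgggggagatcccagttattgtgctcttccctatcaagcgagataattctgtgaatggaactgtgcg
A match describes letters and does not show binding, and the counts do not tell which promoter a transcript started from.

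The transcripts were also searched for GGACT, a frequent form of the sequence in which m6A is placed, on the sense strand of 1 principal transcript per gene in GENCODE 29. CTNNB1 held 8 matches, 1.69 per kilobase, and TCF7L1 held 5, also 1.69 per kilobase, at the percentiles 83.6 and 83.5 of 15431 genes. TCF7 had 4 matches, 1.20 per kilobase, at percentile 64.5, and GSK3B 8, 1.04 per kilobase, at percentile 55.2. The remaining 6 lay below the median of 0.954 per kilobase, from CSNK1A1 with 0.494 to GSK3A with 0.851. CTNNB1 and TCF7L1, with the same density, had log2 fold changes of -0.02 and -0.32. A match is not a methylated site: 91.5% of transcripts hold at least 1.

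The wider pathway was described with 4 lists of genes. The limma-trend calls in these lists were lost without shNC library 1 or shNC library 2, where that test called 0 genes in all, and were kept by edgeR in 4 of 4 fits that left out a library. Other parts of the destruction machinery, such as phosphatase subunits, tankyrases and ubiquitin ligases, numbered 32 tested of 33. None (0) rose or fell in limma-trend, which called 3.86% of all genes tested and 8.84% of protein-coding genes averaging 100 or more counts. The median log2 fold change was -0.01. At an unadjusted p under 0.05 there were 9, 6 higher and 3 lower in shALKBH5. That p was reached by 21.4% of all genes and by 37.7% of protein-coding genes averaging 100 or more counts. EdgeR called 8 of the list and DESeq2 2, where they called 20.8% and 11.4% of all genes. Of the 10722 protein-coding genes averaging 100 or more counts, edgeR called 1480 as higher and 1467 as lower, and DESeq2 739 and 657. AXIN2 is the inducible paralog of AXIN1 that feeds back on the pathway. It had 444 and 505 counts in shALKBH5 cells against 373 and 385 in shNC cells, a log2 fold change of 0.32. Its adjusted p was 0.115 in limma-trend, 0.0186 in edgeR and 0.168 in DESeq2. APC2, the paralog of APC, had 213 and 208 in shALKBH5 cells against 176 and 202 in shNC cells, with an adjusted p of 0.474. The F-box proteins that recognise phosphorylated beta-catenin, BTRC and FBXW11, had adjusted p-values of 0.392 and 0.997. BTRC had 665 and 624 counts in shALKBH5 cells against 693 and 689 in shNC cells, and FBXW11 had 1273 and 1352 against 1383 and 1252.

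Of this list, 2 genes are named because of their values. AMER1, which brings APC and the complex to the membrane, had 177 and 223 counts in shALKBH5 cells against 122 and 133 in shNC cells. Its log2 fold change was 0.64 and its adjusted p 0.0843 in limma-trend, with 0.000628 to 0.338 over the alternatives. TNKS2, a tankyrase that marks axin for breakdown, had 858 and 787 counts in shALKBH5 cells against 1139 and 1026 in shNC cells. Its log2 fold change was -0.39 and its adjusted p 0.0580, with 1.89e-07 to 0.299 over the alternatives. Groups did not overlap for 22 of the 32 tested genes of the list, AMER1 and TNKS2 among them. The share was 50.6% over all genes tested and 65.2% of protein-coding genes averaging 100 or more counts. Since AMER1 and TNKS2 were chosen by their values, their gaps are not a separate result.

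Among nuclear cofactors and repressors of beta-catenin, 29 of 32 were tested, and TLE4 and LEF1 were not analysed here. In limma-trend, 1 rose, 0 fell and 13 had an unadjusted p under 0.05, and the median log2 fold change was -0.04. Over all genes, 3.86% were called and 21.4% had that p. Among protein-coding genes averaging 100 or more counts, these shares were 8.84% and 37.7%. TNIK, a kinase that binds TCF4 and beta-catenin, rose to 2058 and 2026 counts in shALKBH5 cells, against 1599 and 1536 in shNC cells (log2 fold change 0.38, limma-trend adjusted p 0.0195). BCL9 had 815 and 756 counts in shALKBH5 cells against 885 and 939.9 in shNC cells, lower where its paralog BCL9L was higher (log2 fold change -0.22, limma-trend adjusted p 0.140). CTNNBIP1, an inhibitor that blocks TCF binding to beta-catenin, had 624 and 630 counts in shALKBH5 cells against 692 and 639 in shNC cells. EdgeR, with 20.8% of all genes called, called 6 of the list as higher and 6 as lower, and DESeq2, with 11.4%, called 4 and 2.

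Genes of the cadherin and catenin adhesion complex, which holds the other pool of beta-catenin, numbered 10 tested of 11. JUP, or plakoglobin, the close relative of beta-catenin in junctions, rose to 9705 and 9502 counts in shALKBH5 cells, against 8216 and 8511 in shNC cells (log2 fold change 0.20, limma-trend adjusted p 0.0427). None (0) fell in limma-trend, which called 3.86% of all genes tested and 8.84% of protein-coding genes averaging 100 or more counts. In the list, 6 had an unadjusted p under 0.05, 2 higher and 4 lower. That p was reached by 21.4% of all genes and by 37.7% of protein-coding genes averaging 100 or more counts. EdgeR called 2 as higher and 3 as lower and DESeq2 1 and 1, against 20.8% and 11.4% of all genes. CDH1, which encodes E-cadherin, had 1891 and 1917 counts in shALKBH5 cells against 2171 and 2170 in shNC cells. Its log2 fold change was -0.19 and its adjusted p 0.0630. The median of the list was 0.00.

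Of 22 genes that TCF and beta-catenin are known to regulate in the intestine, 18 were tested, and TCF7 is one of them. CD44, MYC and CCND1 rose, TCF7 and DKK1 fell, and the other 13 did not pass, with a median log2 fold change of 0.06. Of all genes tested, 3.86% were called, and 8.84% of protein-coding genes averaging 100 or more counts. MYC had 6256 and 6021 counts in shALKBH5 cells against 3789 and 4057 in shNC cells, and DKK1, a secreted Wnt antagonist, had 6232 and 6130 against 8678 and 7829. CD44 had 10424 and 10868 counts in shALKBH5 cells against 6917 and 6938 in shNC cells, and CCND1, which encodes cyclin D1, had 11204 and 10875 against 9619 and 9052. EdgeR called 5 as higher, among them AXIN2 and SP5, and 4 as lower, among them NOTUM and TNFRSF19. DESeq2 called 3 and 3, where edgeR and DESeq2 called 20.8% and 11.4% of all genes. Called targets lay in both directions.

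**Figure D4:**
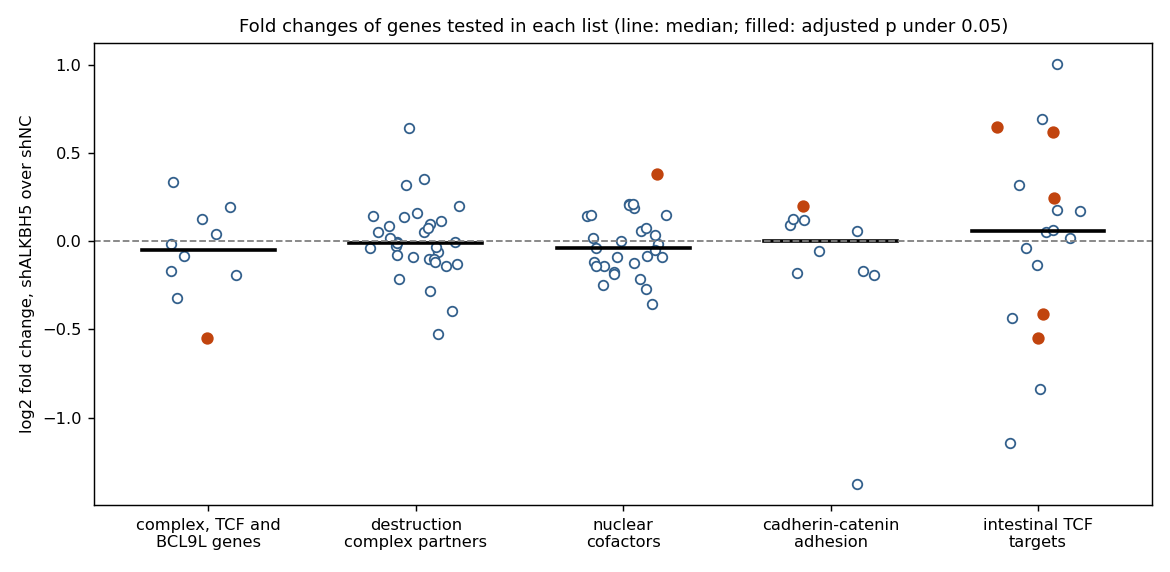
Log2 fold change (y axis, shALKBH5 over shNC) of every tested gene in the set of 10 genes and in 4 lists of pathway genes, with a black line at the median of each and filled points where the adjusted p is under 0.05. Medians lie between -0.05 and 0.06, and filled points are TCF7, TNIK, JUP and the 5 called targets, TCF7 among them a second time.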

How the data were processed

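Per the labels' protocols, total RNA of HCT116 cells went into an mRNA library kit; which aligner, counting program, strand setting and build were used is not given in the sources used here. The values of each library were deposited by the authors as a signal, that is, gene counts scaled by 1 size factor per library, beside the authors' log2 fold change, p-value and adjusted p-value per gene, per the file headers. For 100% of values whole reads were recovered within 0.001. Positions of 28391 genes match GENCODE 29 (GRCh38).

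Genes that reached a value of 1 in 2 or more of the 4 libraries were tested with limma-trend (limma 3.58.1, R 4.3.3) on log2(value + 1), without a replicate block, all 4 libraries in 1 fit. The design named a count test for raw counts; the table holds normalised counts, so edgeR 4.0.16 and DESeq2 1.42.0 on recovered reads are alternatives. The fits were tested on simulated data. Within each group the 2 libraries differed beyond sampling noise (chi-square per gene 2.28 in shALKBH5 and 3.00 in shNC).

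The 10 genes and the lists were chosen with earlier results of these data known. Named were all 10 genes, ALKBH5, up to 6 called genes of each list, and BCL9, AXIN2, APC2, BTRC, FBXW11, CTNNBIP1 and CDH1 whatever their values. AMER1 and TNKS2 were chosen after their values were seen. HIPK2 and CHD8, from the nuclear cofactors, were chosen in the same way for the tally over alternatives. Levels per kilobase use the union of a gene's exons. Promoter sequences are from RefSeq (GRCh38.p14). One further epithelial marker is not reported here.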

Additional observations from a re-analysis of the deposited data

How the results depend on the processing

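Over 18 alternatives, 9 of 504 single-gene results changed sign. With 1 library left out, CTNNB1 ranged from -0.0362 to 0.0025 (log2 fold change), positive without shALKBH5 library 2. GSK3A reached 0.0851 and gave -0.0052 without shALKBH5 library 2 and -0.003 without shNC library 1, and -0.0086 and -0.0036 in the same fits with edgeR. FBXW11 reached -0.0762 and gave 0.0395 without shALKBH5 library 1 and 0.0678 without shNC library 1, and 0.0355 and 0.0672 with edgeR. Of the others, 385 kept direction and call, 29 lost the call and 81 gained one. The 504 results are those of 28 genes. AMER1, TNKS2, HIPK2 and CHD8, added after their values were seen, gained 7, 10, 10 and 9 of the calls. Leaving out a library with edgeR and using the length of the principal transcript were chosen after the data were seen.

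Counts of called genes moved most, and the number of genes tested differed between settings. The main fit called 3.86% of 25887 genes, and 27.8% of 12540 were called with a mean of at least 50 counts. EdgeR called 20.8% of 16473 genes and DESeq2 11.4% of 12979. The 1000 over all genes became 3487 with a mean of at least 50 counts, 2059 with libraries rescaled to equal totals (787 higher and 1272 lower, against 513 and 487), 0 without the mean-variance trend (3903 at an unadjusted p under 0.05), 3428 in edgeR, and, with 1 library left out, 0 to 2281 in limma-trend and 1967 to 3433 in edgeR, of which 1967, 2228 and 3016 are without shALKBH5 library 1, shALKBH5 library 2 and shNC library 1. Of the 10 genes, 1 became 5, 3, 0, 5, 0 to 4 (limma-trend) and 3 to 6 (edgeR) under the same settings, and 3 in DESeq2. Of the partners, 0 became 8, 3, 0, 8, 0 to 3 and 3 to 9 (7 without shNC library 1), and 2 in DESeq2. Of the nuclear cofactors, 1 became 12, 5, 0, 12, 0 to 6 and 5 to 11 (7 without shNC library 1), and 6 in DESeq2. Of the adhesion genes, 1 became 5, 4, 0, 5, 0 to 2 and 2 to 6, and 2 in DESeq2. Of the targets, 5 became 9 with a mean of at least 50, 0 without the trend, 9 in edgeR, and 0 to 7 and 7 to 9 with 1 library left out. Of the fits that left out a library, the limma-trend fits without an shNC library are those that called 0 genes. Every fit that leaves out a library, of either group, assumes that the lone library left in that group varies like the other group. The cause of these moves was not tested.

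With a replicate block the counts were 111 over all genes and 0 of the 10 genes (4 at an unadjusted p under 0.05), with 0 of the partners, 0 of the cofactors, 0 of the adhesion genes and 2 of the targets; TCF7 then had an adjusted p of 0.0701, and without the trend 0.219. Same-numbered libraries did not deviate together (r = -0.03 over 12540 genes). With 2 libraries per group this compares a single difference per gene in each group, so it cannot settle whether the libraries were paired. The difference in the share of TCF7 was -7.15 points without length correction and -7.56 by principal transcript, against -4.92, and -5.29 to -4.55 with 1 library left out, while that of GSK3A was 2.17 to 4.43.

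With 2 libraries per group and 1 hairpin, what the hairpin did besides lowering ALKBH5 cannot be told apart from the knockdown. Protein levels, phosphorylation of beta-catenin and m6A were not measured in these libraries.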
